A study of Homo sapiens with 6 samples.

Results

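The 8 genes described here encode enzymes that make nonessential amino acids or move their amino groups: *ASNS*, *GLUL*, *GPT2*, *GOT1*, *ALDH18A1*, *PYCR1*, *CBS* and *CTH*. They were matched by symbol among 39739 gene rows, and all 8 were found. The set was drawn up with the fold changes of these same libraries already known, so the difference between groups in each of the 8 genes is given as a description and carries no test. None of the lists of other amino acid genes given below holds any of the 8 genes.

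Asparagine synthetase (*ASNS*) and glutamine synthetase (*GLUL*) attach an amide group to aspartate and glutamate, respectively. The transaminases GPT2 and GOT1 exchange amino groups between glutamate and the keto acids pyruvate and oxaloacetate, which yields alanine and aspartate. ALDH18A1 and PYCR1 catalyse the first and the last steps from glutamate to proline, and CBS and CTH turn homocysteine into cysteine by transsulfuration. Several of these genes, *ASNS* above all, are known targets of the transcription factor ATF4, whose translation increases when cells lack amino acids or have stress in the endoplasmic reticulum.

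Messenger RNA of HGC27 cells, a human gastric cancer line, was sequenced in 2 groups of 3 libraries. HGC27-FN1 3′-UTR cells were a stable line made with lentivirus and selected with puromycin that overexpresses the 3′-untranslated region of *FN1*, the fibronectin 1 mRNA, and HGC27-control cells were their comparison. What the control line carried is not given in the sources used here, and nothing in the labels says that replicates were separate cultures, so p-values below measure only the spread between these libraries, which may be technical. The comparison asks how the transcript levels of these enzymes differed when the *FN1* 3′-UTR was overexpressed. In bulk RNA of this kind, a lower level in every cell and fewer cells that express a gene cannot be told apart.

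Reads assigned to genes numbered from 16357085 to 29202046 per library of HGC27-FN1 3′-UTR cells and from 22332816 to 37037532 per library of HGC27-control cells. The limit that a count of 0 allows, 3 reads, corresponded to 0.081 to 0.183 RPM (reads per 1000000 assigned reads), for counting error only. The *FN1* row, the check of the labels, was at 0.777, 0.745 and 0.819 RPKM (RPM per kilobase of exon) in HGC27-FN1 3′-UTR cells and at 0.543, 0.474 and 0.532 RPKM in HGC27-control cells. This row averages over all exons of the gene. It rose by 0.52 on the log2 scale (limma, Benjamini-Hochberg adjusted p = 0.0292), but with any of the 6 libraries left out the adjusted p lay between 0.0614 and 0.0982. *VIM*, a mesenchymal marker of this undifferentiated line, was at 304 ± 13.5 RPKM and 303 ± 19.6 RPKM (SD, n = 3) with and without the overexpression, whereas the collagen gene *COL1A1*, also mesenchymal, was at 44.5 ± 0.957 RPKM against 30.5 ± 3.71 RPKM. The leukocyte marker *PTPRC* was below 0.02 RPKM in every library and the endothelial marker *PECAM1* was listed at 0. The epithelial keratins were higher in HGC27-FN1 3′-UTR cells, with *KRT8* at 12.2 ± 2.04 RPKM against 2.15 ± 0.135 RPKM and *KRT18* at 4.87 ± 1.69 RPKM against 0.179 ± 0.0265 RPKM. So were the epithelial adhesion genes *EPCAM*, at 1.81 ± 0.678 RPKM against 0.208 ± 0.0487 RPKM, and *CDH1*, at 0.703 ± 0.110 RPKM against 0.126 ± 0.0276 RPKM. No library of one group overlapped the other in *COL1A1* or in these 4 genes, and their part in the enzyme levels below was not tested.

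*ASNS* (chr7:97852118-97872542, minus strand, GRCh38) makes asparagine from aspartate, with glutamine as the nitrogen donor. Its level was 10.5, 10.6 and 10.6 RPKM in HGC27-FN1 3′-UTR cells and 25.6, 25.03 and 25.4 RPKM in HGC27-control cells. The groups lay far apart, with a gap of 14.4 RPKM between the nearest libraries. The mean was 10.6 ± 0.0519 RPKM against 25.3 ± 0.284 RPKM (SD, n = 3), which is 41.8% of the control level, and the log2 fold change, on the log2(RPKM + 0.1) scale used throughout, was −1.25 with a standard error (SE) of 0.027. These values rest on 3303 reads in the first group and 10169 in the second. Only 157 of the 23299 genes tested, or 0.674%, had an equal or lower fold change. The pseudogene *ASNSP1*, a near copy of the *ASNS* message, had 24 and 96 reads in the same order, so a small part of the reads of either could have been assigned to the other.

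The *ASNS* promoter holds a well-known site at which ATF4 binds together with a C/EBP partner. RefSeq windows of 250 bases before to 50 bases after each start (GRCh38.p14) were searched on both strands for TGATGNAA, a form of this composite site, for the cyclic AMP response element TGACGTCA, and for the E-box CACGTG. Windows matched 6 of the 8 genes, and *GPT2* and *PYCR1* had none. TGATGNAA was in a window of 4.46% of all 27305 gene symbols (3.62% of their 35116 windows), and in a window of *ASNS* and of *GOT1*. TGACGTCA was in a window of 2.25% of all symbols (1.85% of windows) and of none of the 6 genes. CACGTG was in a window of 8.77% of all symbols (7.26% of windows) and in that of *ALDH18A1*. The 30 bases around each match are shown because they are the matches found among the 6 genes searched, each read 5′ to 3′ on the minus strand, which is the strand of the gene, with the match in capitals.
ASNS, TGATGNAA, 68 bases before the start, chr7:97872458-97872487: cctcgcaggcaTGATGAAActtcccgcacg
GOT1, TGATGNAA on the opposite strand, 198 bases before the start, chr10:99430804-99430833: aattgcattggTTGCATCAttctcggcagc
ALDH18A1, CACGTG, 136 bases before the start, chr10:95656829-95656858: ggctggcccgcCACGTGgagcgctggcttg
A match of letters is a description of the sequence, and binding was not measured here. The log2 fold changes of *ASNS* and *GOT1*, the genes with TGATGNAA, were −1.25 and −0.18. Whether the match bears on either level was not tested.

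*GLUL* (chr1:182381704-182392206, minus strand) makes glutamine from glutamate and ammonia. It was at 10.5, 9.53 and 9.67 RPKM in HGC27-FN1 3′-UTR cells and at 10.9, 11.03 and 11.4 RPKM in HGC27-control cells. Every HGC27-FN1 3′-UTR library was below every control library, but the nearest 2 were only 0.394 RPKM apart. The mean was 9.90 ± 0.523 RPKM against 11.1 ± 0.276 RPKM (SD, n = 3), or 89.1% of the control level, with a log2 fold change of −0.17 (SE 0.047). Among tested genes, 28.8% had an equal or lower fold change, so *GLUL* was well within the bulk of the transcriptome.

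*GPT2* (chr16:46884378-46931297, plus strand) encodes the mitochondrial alanine transaminase. It was at 8.15, 8.75 and 8.70 RPKM in HGC27-FN1 3′-UTR cells and at 17.4, 17.1 and 17.3 RPKM in HGC27-control cells. The groups were separated by 8.32 RPKM, and the mean was 8.53 ± 0.333 RPKM against 17.2 ± 0.144 RPKM in controls (SD, n = 3), or 49.5% of the control level. The log2 fold change was −1.01 (SE 0.038), on 3819 and 9871 reads, and 1.27% of tested genes had an equal or lower one. *GPT2* and *ASNS* stood apart from the other members in this respect.

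*GOT1* (chr10:99396870-99430624, minus strand) encodes the cytosolic aspartate transaminase, which also works in the malate-aspartate shuttle. It was at 25.2, 24.5 and 24.0 RPKM in HGC27-FN1 3′-UTR cells and at 27.1, 28.4 and 28.2 RPKM in HGC27-control cells. The groups did not overlap, with 1.95 RPKM between the nearest libraries. The mean of 24.6 ± 0.578 RPKM was 88.1% of the control mean of 27.9 ± 0.679 RPKM (SD, n = 3), a log2 fold change of −0.18 (SE 0.033).

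*ALDH18A1* (chr10:95605929-95656706, minus strand) encodes pyrroline-5-carboxylate synthase, which commits glutamate to proline and ornithine. It was at 20.4, 20.3 and 20.4 RPKM in HGC27-FN1 3′-UTR cells and at 19.1, 19.7 and 20.1 RPKM in HGC27-control cells. It was the one gene of the 8 with every HGC27-FN1 3′-UTR library above every control library, though by as little as 0.213 RPKM. The mean was 20.4 ± 0.0926 RPKM against 19.6 ± 0.482 RPKM (SD, n = 3), a log2 fold change of 0.05 (SE 0.030) on 5369 and 6695 reads.

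*PYCR1* (chr17:81932384-81942412, minus strand) encodes the mitochondrial reductase that completes proline synthesis and was the most abundant transcript of the 8 in each library. It was at 33.2, 32.8 and 35.3 RPKM in HGC27-FN1 3′-UTR cells and at 42.5, 44.5 and 45.7 RPKM in HGC27-control cells. All HGC27-FN1 3′-UTR libraries were lower, by at least 7.23 RPKM. The mean was 33.8 ± 1.34 RPKM against 44.3 ± 1.62 RPKM (SD, n = 3), 76.3% of the control level, with a log2 fold change of −0.39 (SE 0.042). The exons of *PYCR1* overlap those of RP11-498C9.13 on the opposite strand, which had 290 and 498 reads beside 6855 and 11590 for *PYCR1*. Whether strand was used in counting is not given in the sources used here, so reads within that overlap cannot be told apart. *PYCR1* exons also overlap those of *MYADML2* on the same strand, a row with 12 and 19 reads in the same order.

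*CTH* (chr1:70411218-70439851, plus strand) encodes cystathionine gamma-lyase, which releases cysteine. It was at 2.53, 2.31 and 2.35 RPKM in HGC27-FN1 3′-UTR cells and at 3.10, 3.48 and 3.37 RPKM in HGC27-control cells. The groups did not overlap, with a gap of 0.565 RPKM. The mean of 2.40 ± 0.119 RPKM was 72.3% of the control mean of 3.32 ± 0.197 RPKM (SD, n = 3), and the log2 fold change was −0.45 (SE 0.068), the widest error of the 7 genes fitted. It rests on 402 and 727 reads, the fewest among them.

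*CBS* (chr21:43053191-43076943, minus strand) encodes cystathionine beta-synthase, the enzyme just before CTH. Only 2, 2 and 1 reads fell on it in HGC27-FN1 3′-UTR cells and 0, 1 and 2 reads in HGC27-control cells, and no library exceeded the 3 reads that a count of 0 allows. It did not reach the minimum of 0.1 RPKM in 3 libraries, no fold change was computed, and a difference was not detectable at these read numbers. The near-identical gene copy *CBSL* had 0, 0 and 2 reads against 0, 2 and 0 reads, so reads of either could have been split between them or dropped. Of the 2 transsulfuration enzymes, *CTH* alone thus had reads assigned in number.

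**Figure D1:**
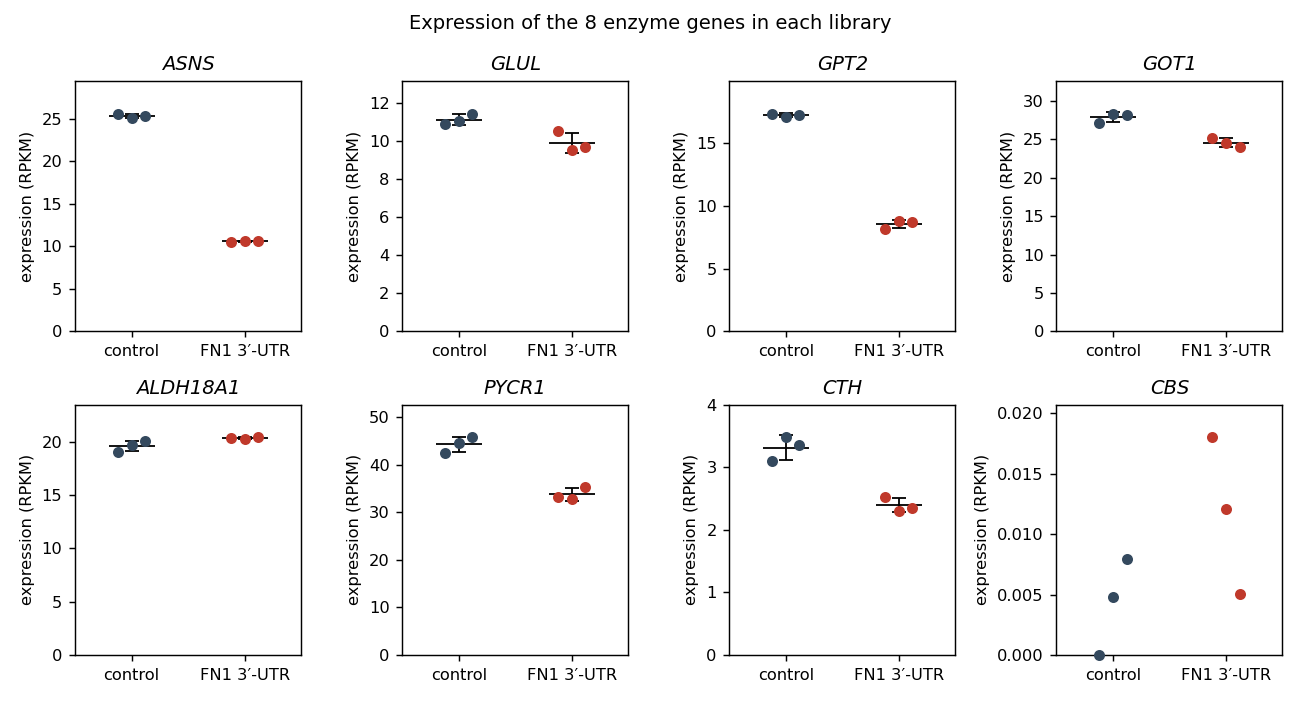
Expression in RPKM (vertical axis, starting at 0) of the 8 enzyme genes in the 3 HGC27-control libraries (dark points) and the 3 HGC27-FN1 3′-UTR libraries (red points), with bars for the mean and SD except for *CBS*. *ASNS* and *GPT2* are at 41.8% and 49.5% of their control means, whereas *GLUL* and *GOT1* are at 89.1% and 88.1%.

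Of the 7 genes fitted, 6 had every HGC27-FN1 3′-UTR library below every control library and 1 had every one above. Over all 23299 tested genes, 21.7% were separated in the lower and 14.3% in the higher direction. The 8 genes were chosen on this contrast, and nothing is read from the counts. The fold changes ran from −1.25 to 0.05 with a median of −0.39, whereas the median over the 14652 tested genes of mean RPKM at least 1 was −0.03 and 95% of those genes lay between −0.52 and 0.52. *ASNS* and *GPT2* were outside that range. *CTH*, at −0.45, and *PYCR1*, at −0.39, were inside it, with 3.64% and 5.20% of those genes at an equal or lower fold change. *GOT1*, *GLUL* and *ALDH18A1* were in its central part.

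**Figure D2:**
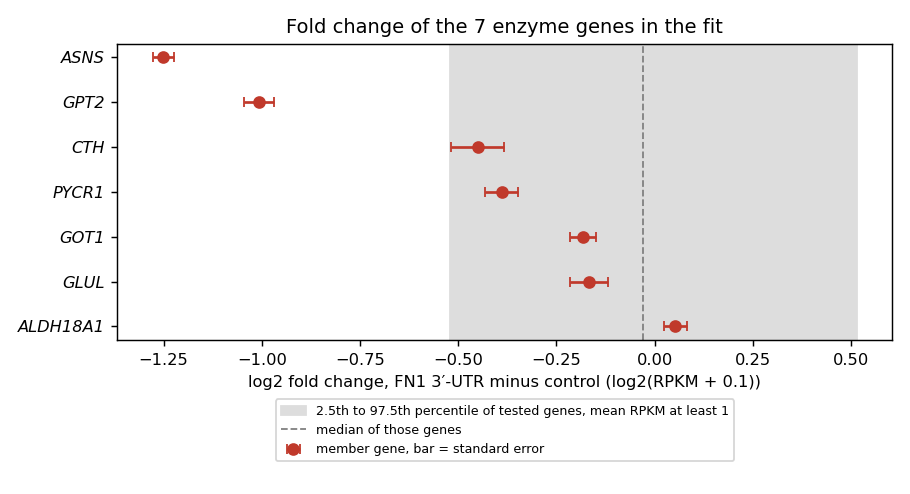
Log2 fold change of HGC27-FN1 3′-UTR minus HGC27-control (horizontal axis, log2(RPKM + 0.1)) for the 7 fitted enzyme genes, with bars for the SE. The grey band spans −0.52 to 0.52, the range of 95% of tested genes of mean RPKM at least 1, and *ASNS* and *GPT2* lie to its left.

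Levels per length can be set side by side within a group. In HGC27-control cells the order from high to low was *PYCR1*, *GOT1*, *ASNS*, *ALDH18A1*, *GPT2*, *GLUL*, *CTH* and *CBS*, and no neighbours in it overlapped in their libraries. In HGC27-FN1 3′-UTR cells *ALDH18A1* stood above *ASNS* and *GLUL* above *GPT2*, so that both of the genes with the largest fold changes moved down by 1 place. *ASNS* and *GLUL*, now neighbours, were nearly level, with the lowest *ASNS* library at 10.525 RPKM and the highest *GLUL* library at 10.498 RPKM. Together the 8 genes took 433, 425 and 433 RPM in HGC27-FN1 3′-UTR cells and 591, 600 and 610 in HGC27-control cells. *ASNS* and *GPT2* alone accounted for 98.7, 103 and 103 against 224, 220 and 223 RPM, which is most of that difference.

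Replicates lay close together. The coefficient of variation (CV, the SD as a percentage of the mean) of *ASNS* was 0.490% in HGC27-FN1 3′-UTR cells and 1.12% in HGC27-control cells, both less than the 3.11% and 1.75% that read counting alone gives on average. *ALDH18A1* had the lowest value, 0.455%, in HGC27-FN1 3′-UTR cells. The widest were *CTH*, at 4.96% and 5.94%, which its low read number covers, and *GLUL* in HGC27-FN1 3′-UTR cells, at 5.28% against 2.25% from counting. Among 11408 genes with at least 100 reads in every library, the median was 4.03% in HGC27-FN1 3′-UTR cells and 4.35% in HGC27-control cells.

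Ratios within a library do not depend on how libraries were scaled. The ratio of *PYCR1* to *ALDH18A1*, the last against the first enzyme of proline synthesis, was 1.66 ± 0.0601 in HGC27-FN1 3′-UTR cells and 2.25 ± 0.0278 in HGC27-control cells (SD, n = 3). The ratio of *ASNS* to *GLUL*, which both make an amide, was 1.07 ± 0.0600 against 2.28 ± 0.0659. Among transaminases, *GPT2* to *GOT1* was 0.348 ± 0.0207 against 0.618 ± 0.0196. The groups did not overlap in any of these ratios. As the members were chosen on this contrast, these ratios and all those given below are a description, and nothing is read from their direction or separation.

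Paralogs and opposing enzymes that were not members gave a set of reference values, and they were tested. *GOT2*, the mitochondrial aspartate transaminase, was at 27.4 RPKM against 26.8 RPKM in controls (log2 fold change 0.03, limma adjusted p = 0.757), and *GPT*, the other alanine transaminase, was near the filter at 0.165 RPKM against 0.157 RPKM (0.08, limma adjusted p = 0.908). *GPT2* relative to *GOT2* was thus 0.312 ± 0.0207 against 0.645 ± 0.0468, and *GOT1* relative to *GOT2* was 0.897 ± 0.0204 against 1.04 ± 0.0689. *PYCRL*, the cytosolic reductase now named *PYCR3*, was at 2.80 RPKM against 2.87 RPKM (−0.04, limma adjusted p = 0.825).

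Of 6 named enzymes that consume the same amino acids or glutamate, 1 was called. *ASRGL1*, which cleaves asparagine, fell from 9.47 to 7.72 RPKM (−0.29, limma adjusted p = 0.0172), with an adjusted p of 0.0600 without HGC27-FN1 3′-UTR replicate 2 and 0.0555 without replicate 3. *ASNS* to *ASRGL1* was still 1.37 ± 0.0588 against 2.68 ± 0.119. The proline-degrading *PRODH* was at 0.0822 RPKM against 0.121 RPKM (limma adjusted p = 0.433) and *ALDH4A1*, which acts after it, at 1.87 RPKM against 1.88 RPKM (limma adjusted p = 0.977). Glutamate dehydrogenase *GLUD1* was at 27.7 RPKM against 29.1 RPKM (−0.07, limma adjusted p = 0.249). *OAT*, which links ornithine to proline, was at 6.75 RPKM against 6.66 RPKM (limma adjusted p = 0.860), and the branched-chain transaminase *BCAT1* at 10.6 RPKM against 10.5 RPKM (limma adjusted p = 0.855).

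Around transsulfuration, *MAT2A*, which makes the methyl donor whose use yields homocysteine, was at 88.7 RPKM against 85.4 RPKM (0.06, limma adjusted p = 0.460). The glutathione synthesis subunits *GCLC* and *GCLM* use the cysteine that CTH makes. *GCLC* was at 4.10 RPKM against 4.61 RPKM (−0.17, limma adjusted p = 0.0764) and *GCLM* at 2.17 RPKM against 2.39 RPKM (−0.13, limma adjusted p = 0.315). The ratio of *CTH* to *GCLM* was 1.11 ± 0.0948 in HGC27-FN1 3′-UTR cells and 1.39 ± 0.0441 in HGC27-control cells, without overlap.

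**Figure D3:**
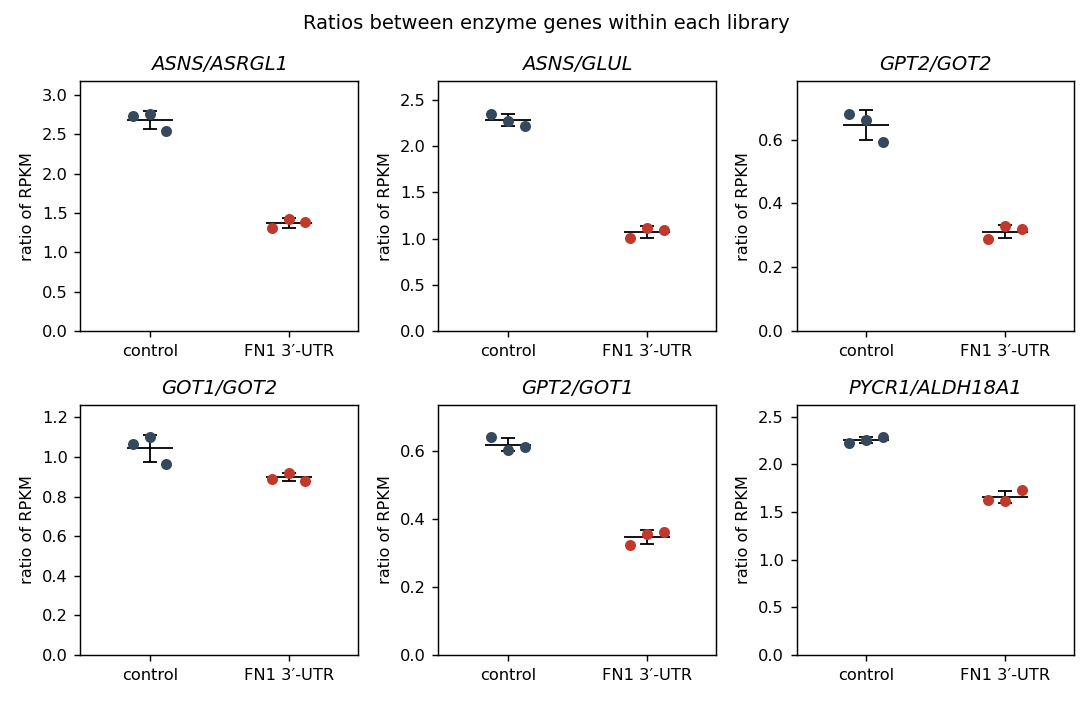
Ratio of the RPKM of 2 genes within each library (vertical axis, starting at 0), for the 3 HGC27-control libraries (dark points) and the 3 HGC27-FN1 3′-UTR libraries (red points), with bars for the mean and SD. All 6 ratios shown were lower in every HGC27-FN1 3′-UTR library, from 1.37 against 2.68 for *ASNS* to *ASRGL1* to 0.897 against 1.04 for *GOT1* to *GOT2*. Each numerator is a member chosen on this contrast, so the shared direction is a description and not a result.

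Other genes of amino acid metabolism and of its regulation were described by 8 lists without the members, with 96 genes found and 81 tested. The lists, too, were drawn up with earlier results of these libraries known, so their counts and shares are not independent evidence of a direction. Of these, 22 fell and 6 rose at an adjusted p under 0.05 (limma, Benjamini-Hochberg over 23299 genes), which is 27.2% and 7.41% of those tested, beside 7.36% lower and 5.62% higher over all tested genes and 10.3% lower and 7.02% higher over those of mean RPKM at least 1. The median log2 fold change of the 81 genes was −0.09 and that of all tested genes −0.04. With single libraries left out, the falls numbered between 14 (without HGC27-FN1 3′-UTR replicate 2) and 18 and the rises between 1 (without HGC27-control replicate 2) and 4, and 13 of the 22 falls and 1 of the 6 rises held in all 6 such fits. The lists differed widely in how many of their genes were called. Most of the 22 falls were in the serine and one-carbon list (6 of 9 genes) and the response regulator list (11 of 18). Each of the other lists had at most 3 falls, so the pooled share does not describe them.

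Among 15 tested genes of glutamate, glutamine and transaminase metabolism, 1 fell and 1 rose, with a median of 0.02. *PSAT1*, the transaminase of serine synthesis, fell from 135 to 83.4 RPKM (−0.70, limma adjusted p = 5.1e-04). *KYAT3*, a kynurenine transaminase, rose from 6.89 to 8.34 RPKM (0.27, limma adjusted p = 0.0477), but kept an adjusted p under 0.05 only without HGC27-FN1 3′-UTR replicate 1 (0.0383) and had between 0.0754 and 0.145 without any of the other libraries. No transaminase of the list other than *PSAT1* was called lower.

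Of 11 tested genes of proline, ornithine and arginine metabolism, 3 fell and none rose, with a median of −0.06. *ASS1*, which joins citrulline and aspartate and is also counted in the asparagine and aspartate list, fell from 79.2 to 57.1 RPKM (−0.47, limma adjusted p = 0.00192). The mitochondrial arginase *ARG2* fell from 7.72 to 6.85 RPKM (−0.17, limma adjusted p = 0.0321), with an adjusted p between 0.0748 and 0.0992 with any 1 of the 6 libraries left out. Of 4 tested genes of asparagine and aspartate metabolism, 2 fell, *ASS1* and *ASRGL1*, and the median was −0.20.

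Of 13 tested genes of methionine, transsulfuration and glutathione metabolism, 1 fell and 1 rose, with a median of −0.08. Methionine synthase *MTR*, which returns homocysteine to methionine, fell from 12.1 to 10.96 RPKM (−0.14, limma adjusted p = 0.0487). The mitochondrial sulfur dioxygenase *ETHE1* rose from 1.46 to 2.08 RPKM (0.47, limma adjusted p = 0.0485). Neither held with any 1 of the 6 libraries left out, with adjusted p from 0.0519 to 0.155 for *MTR* and from 0.0622 to 0.117 for *ETHE1*. Among 7 malate-aspartate shuttle genes, partners of GOT1, none was called and the median was 0.03. Among 9 tested glutamine amidotransferases, enzymes that like ASNS take the amide of glutamine, 1 rose and none fell, with a median of 0.05: *CTPS1*, which makes CTP, rose from 26.3 to 30.3 RPKM (0.20, limma adjusted p = 0.0106; 0.0531 without HGC27-control replicate 2).

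The serine and one-carbon list and the list of amino acid response regulators had the most falls. Of 9 serine synthesis and one-carbon genes, 6 fell and none rose, with a median of −0.31. The 6 include *PSAT1*, which is also counted in the glutamate, glutamine and transaminase list. *PHGDH*, which starts serine synthesis, fell from 104 to 58.9 RPKM (−0.82, limma adjusted p = 1.23e-04) and the mitochondrial folate enzyme *MTHFD2* from 54.3 to 39.3 RPKM (−0.47, limma adjusted p = 4.8e-04). Of 18 regulators, 11 fell and 3 rose, with a median of −0.35.

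*ATF4* itself fell from 243 to 153 RPKM (−0.67, SE 0.025, limma adjusted p = 1.9e-04), and *DDIT3*, the stress factor CHOP, from 17.2 to 11.2 RPKM (−0.61, limma adjusted p = 0.00124). The largest falls among regulators were those of the mTORC1 inhibitor *DDIT4* (38.0 to 13.4 RPKM, −1.50, limma adjusted p = 9.9e-05), the stress cofactor *NUPR1* (21.5 to 8.82 RPKM, −1.27, limma adjusted p = 1.23e-04) and the glutathione-degrading *CHAC1* (2.05 to 0.944 RPKM, −1.04, limma adjusted p = 0.0115). *PPP1R15A*, which directs removal of the phosphate from eIF2 alpha, rose from 18.5 to 26.2 RPKM (0.50, limma adjusted p = 0.00329). *EIF2S1*, which encodes eIF2 alpha, and its kinase *EIF2AK2* rose by less, by 0.19 and 0.18 (limma adjusted p = 0.0121 and 0.0332). The *EIF2S1* call was lost without HGC27-FN1 3′-UTR replicate 1 (0.0530) or HGC27-control replicate 2 (0.0600), and the *EIF2AK2* call held only without HGC27-control replicate 1 (0.0352), with 0.0696 to 0.117 without any of the other libraries. The transcript of *ASNS* relative to that of *ATF4* was 0.0693 ± 0.000585 in HGC27-FN1 3′-UTR cells and 0.104 ± 0.00101 in HGC27-control cells (SD, n = 3).

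**Figure D4:**
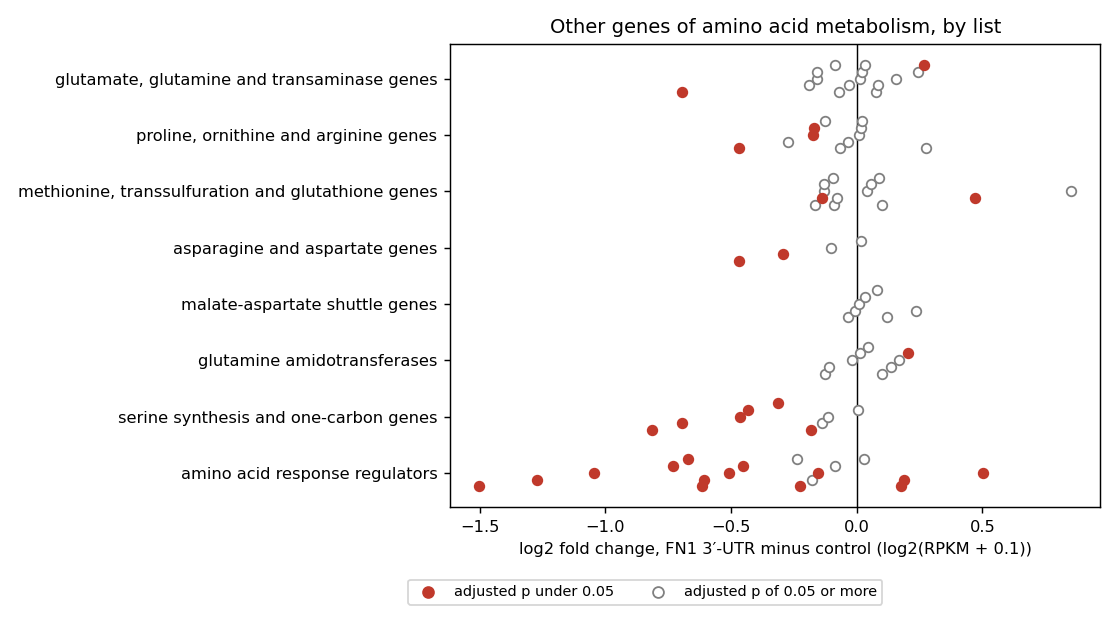
Log2 fold change of HGC27-FN1 3′-UTR minus HGC27-control (horizontal axis, log2(RPKM + 0.1)) for the tested genes of 8 lists of amino acid metabolism and its regulation, 1 row a list and 1 point a gene, filled red at a limma adjusted p under 0.05. The serine and one-carbon row, with 6 of 9 genes called lower, and the regulator row, with 11 of 18, lie mostly to the left of 0, while the shuttle row has no called gene.

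Across the 6 libraries, the log2 level of *ASNS* was tracked most closely among the members by *GPT2* (Pearson r = 0.998), then *PYCR1* (0.974), *CTH* (0.960), *GOT1* (0.951) and *GLUL* (0.865), and r was −0.794 for *ALDH18A1*. These values describe 6 libraries that fall into the 2 groups, so they mostly restate the group difference. Of 14645 other genes of mean RPKM at least 1, 108 had r of 0.99 or more, and 97 were as strongly correlated with the opposite sign. The 5 closest were *ATF4* (0.9995), the heme-binding *HEBP2* (0.9991), the membrane skeleton gene *EPB41* (0.9990), *MTHFD2* (0.9989) and *DDIT4* (0.9987). *EPB41* fell by only 0.31 and *HEBP2* by 0.26 on the log2 scale (limma adjusted p = 0.00403 and 0.0178, the second from 0.0515 to 0.0717 with any library left out), so closeness in pattern did not mean a like fold change.

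**Figure D5:**
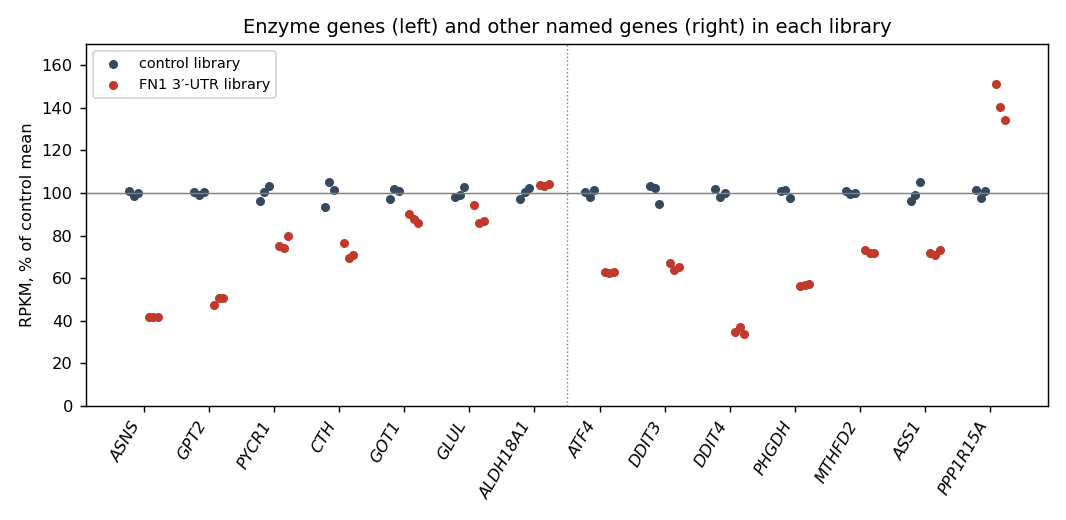
RPKM as a percentage of the control mean (vertical axis, starting at 0) in each HGC27-control library (dark points) and each HGC27-FN1 3′-UTR library (red points), for the 7 fitted enzyme genes left of the dotted line and 7 other named genes right of it. *ASNS* at 41.8% of its control mean lies between *DDIT4* at 35.2% and *ATF4* at 62.8%, and *PPP1R15A* is at 142%.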

How the data were processed

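RNA was sequenced from 3 HGC27-FN1 3′-UTR and 3 HGC27-control libraries, made with a strand-specific mRNA kit. The authors deposited RPKM per gene with exon coordinates and lengths. The submitters' processing notes name Trimmomatic 0.36, STAR 2.5.3a, featureCounts of Subread 1.5.1 and GRCh38, while strandedness of counting and the annotation release are not given in the sources used here. RPKM averages over the merged exon length of a gene, and isoforms are not separated. Because each RPKM value was a whole multiple of 1 read (100% of values within 0.05 of a whole read), reads per library were recovered from them, between 16357085 and 37037532. In pairs of replicates within a group, chi-square per gene was 2.50 to 5.66, so replicates differed by more than sampling noise.

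Genes at 0.1 RPKM or more in at least 3 libraries (23299) were tested with limma 3.58.1 (R 4.3.3) on log2(RPKM + 0.1), with group as the term and trended empirical Bayes, two-sided, with Benjamini-Hochberg adjustment over all of them. The procedure was tested on simulated data. The pseudocount understates fold changes of low genes. An exact permutation test of 3 against 3 cannot go below p = 0.1 and was not used. Over all genes, 1715 fell and 1310 rose (43.3% of calls higher), and with median-ratio scaling 1330 fell and 1696 rose (56.0% higher), with the median of all genes shifted by 0.03.

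The members and lists were chosen with earlier results of these data known. The genes named were the 8 members, a set of paralogs, opposing enzymes and regulators, up to 3 called genes in each direction per list, the 5 genes most like *ASNS*, and *FN1*, and some of these are not reported here. Sequences are from RefSeq (GRCh38.p14), and figures were drawn with matplotlib 3.10.9. Alternatives were other pseudocounts, filters and scalings, voom on recovered reads, a replicate block and leaving out each library.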

Additional observations from a re-analysis of the deposited data

How the results depend on the processing

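The log2 fold changes of the members kept their sign under every alternative tried, with ranges of −1.26 to −1.18 for *ASNS*, −1.02 to −0.94 for *GPT2*, −0.50 to −0.34 for *CTH*, −0.42 to −0.35 for *PYCR1*, −0.20 to −0.15 for *GOT1*, −0.21 to −0.13 for *GLUL* and 0.03 to 0.09 for *ALDH18A1*. Counts moved more. Deviations of same-numbered libraries correlated at only 0.0024 to 0.021, although 5 of the 6 libraries correlated best with their own number. These values pool all tested genes, so they do not settle whether replicate numbers pair the libraries. With the replicate block, 564 genes were higher and 598 lower, and in the 8 lists 1 and 13. voom on recovered reads gave 2042 and 3066. Leaving out 1 library at a time gave 501 to 927 higher and 470 to 1015 lower genes, and 1 to 4 higher and 14 to 18 lower list genes. Each such fit had 5 libraries to estimate the spread. None of the following genes was called in any fit named here, and their sign turned with a library left out: *GOT2* ranged from −0.0024 to 0.0954, *GPT* from −0.2019 to 0.2687, *PYCRL* from −0.0987 to 0.0166, *ALDH4A1* from −0.1258 to 0.0957 (−0.0342 with voom), *OAT* from −0.0186 to 0.0629 and *BCAT1* from −0.0123 to 0.0348 on the log2 scale. The cause of the other moves was not tested. Of 436 values of the other named genes, 350 kept their direction and their side of the threshold, 72 lost the threshold, 2 passed it and 12 turned. *CBS*, with at most 2 reads in a library, had no fold change in the main fit, and the cause of its low count was not tested.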
